A study of Mus musculus with 4 samples.

Results

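The genes described here are 10 AP-1 and immediate early genes: the AP-1 subunit genes Fos, Fosb, Fosl1, Fosl2, Jun, Junb and Jund, and Egr1, Ier2 and Ier3. They were chosen by name, and each of the 10 had 1 row among the 22739 gene names of the deposited tables. The tables hold FPKM values, fragment numbers scaled to transcript length and library size, from RNA sequencing of poly(A)-selected RNA. CCE, an embryonic stem (ES) cell line from mouse strain 129SV, was kept on gelatin, with serum and the cytokine LIF in the medium. In one group Tex10 was depleted by an shRNA (shTex10), and in the control group the shRNA was aimed at luciferase (shLuci), a gene that mouse cells lack. Each group had 2 libraries, which the series design calls biological replicates. The sources used here give neither the time after knockdown nor the number of different hairpins, so effects of a hairpin other than through Tex10 cannot be told apart from those of Tex10.

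Immediate early genes are transcribed within minutes of a stimulus such as serum, growth factors or stress, without the need for new protein synthesis. MAP kinases activate factors such as SRF with its ETS partners, CREB and ATF2 at their promoters, and the transcripts are short-lived. The JUN and FOS proteins pair through leucine zippers to form AP-1, which binds the site TGACTCA (or TGAGTCA), and JUN-ATF pairs prefer the related site TGACGTCA. JUN proteins can pair with each other, whereas FOS proteins need a JUN partner. EGR1 is a zinc finger factor, and Ier2 and Ier3 encode small proteins of the same early response.

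In shTex10, Jun, Junb, Jund, Fos, Fosl2 and Ier3 rose, by 1.46-fold (Jund) to 2.56-fold (Jun). Egr1 and Ier2 fell, to 58.8% and 54.8% of their shLuci means. Fosl1 and Fosb were too low to be tested and had higher means in shTex10. The 8 genes with a mean of at least 1 FPKM were tested as part of 11883 genes, and all 8 passed (limma, Benjamini-Hochberg adjusted p under 0.05), 6 higher and 2 lower. In the same comparison 51.6% of all genes tested passed, 19.8% higher and 31.8% lower. For each of the 10 genes, both libraries of one group lay above both of the other. This was also so for many other genes, with both shTex10 libraries above for 28.3% and below for 48.1% of those tested.

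The promoters of Fos, Jun and Junb, the AP-1 genes with the largest changes among those tested, are printed because they hold elements known to act in genes of this kind. The sequences are the 250 bases before the annotated start, 5′ to 3′ on the strand of the gene, from RefSeq on GRCm38.p6. They lie at chr12:85473640-85473889 (plus strand) for Fos, chr4:95052223-95052472 (minus strand) for Jun and chr8:84978749-84978998 (minus strand) for Junb. Capitals mark TGACG, the first part of the CRE site TGACGTCA, the AP-1-like letters TGACATCA, the CCAAT box and the TATA box TATAAA.
Fos: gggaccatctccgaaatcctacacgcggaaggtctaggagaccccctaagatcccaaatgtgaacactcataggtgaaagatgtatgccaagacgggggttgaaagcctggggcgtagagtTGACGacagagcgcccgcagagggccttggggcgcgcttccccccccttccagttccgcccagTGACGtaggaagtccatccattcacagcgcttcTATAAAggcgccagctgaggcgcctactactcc
Jun: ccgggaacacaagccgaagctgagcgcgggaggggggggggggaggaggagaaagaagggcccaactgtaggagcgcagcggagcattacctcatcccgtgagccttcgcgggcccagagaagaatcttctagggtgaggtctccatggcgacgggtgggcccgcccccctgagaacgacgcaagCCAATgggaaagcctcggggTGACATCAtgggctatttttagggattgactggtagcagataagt
Junb: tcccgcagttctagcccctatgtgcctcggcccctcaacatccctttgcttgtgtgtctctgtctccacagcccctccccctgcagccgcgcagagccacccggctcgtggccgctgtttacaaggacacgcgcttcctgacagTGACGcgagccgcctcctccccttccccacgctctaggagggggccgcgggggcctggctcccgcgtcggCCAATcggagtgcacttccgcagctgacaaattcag

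The RefSeq table held a promoter window for 7 of the 10 genes, Fos, Fosb, Fosl2, Jun, Junb, Jund and Ier3. On both strands of these windows, which run from 250 bases before to 50 after the start, TGACG occurred in Fos, Fosb and Junb, and in 20.8% of 32851 promoter windows of mouse genes. The letters TGACATCA occurred in Jun, and in 3.62% of all windows. The full sites TGACTCA or TGAGTCA (5.20% of all windows), TGACGTCA (1.79%, a site that contains TGACG) and the CArG box bound by SRF (1.63%) were in 0 of the 7 windows. The EGR1 site GCGGGGGCG occurred in Fosb and Fosl2, and in 2.91% of all windows, while its other form GCGTGGGCG (0.612%) and the ETS site CCGGAAGT (3.89%) were in 0 of the 7. The CCAAT box was in Jun, Junb and Ier3 and in 37.4% of all windows, TATAAA in Fos and Junb (there beginning at the annotated start, outside the printed bases) and in 13.6%, and the GC box GGGCGG in Fos, Fosb, Fosl2, Jun and Ier3 and in 35.7%. A match describes letters, not binding. Bases farther than 250 before the start were not searched, so 0 matches in these windows do not show that a gene lacks a site.

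As a check of the labels, Tex10 measured 79.7 ± 3.44 FPKM in shLuci and 12.5 ± 1.21 FPKM in shTex10 (mean ± SD, n = 2 each; log2 change -2.58, SE 0.10). The sums over named rows were 613642 and 632067 FPKM for shLuci and 525878 and 537692 FPKM for shTex10. Rows without a name took 56.3% to 71.6% of each library's sum. FPKM keeps no read total, so the depth behind single values is unknown. A log2 change is shTex10 minus shLuci after adding 1 to each FPKM, which understates the change of low genes. The median change of all genes tested was -0.14, and changes relative to it are given where named so. The p-values set the difference between the groups against the spread within them in these 4 libraries. In limma that spread is moderated by the spread of the other genes. For a single gene the smallest p of an exact permutation test (two-sided, 2 against 2) is 0.33.

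The JUN family supplied most of the summed JUN and FOS transcript in these cells, and each of its 3 members rose. Jun (mm9 chromosome 4, 94715726 to 94718913), the gene of c-JUN, a strong activator of transcription and of cell growth, measured 6.83 and 6.03 FPKM in shLuci and 17.6 and 15.3 FPKM in shTex10. Both shTex10 libraries lay well above both controls, the lower of them by 2.24-fold over the higher control. The log2 change was 1.23 (SE 0.11; limma, Benjamini-Hochberg adjusted p = 0.000794), or 1.37 relative to all genes, and 4.02% of the genes tested had a higher one.

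Junb (mm9 chromosome 8, 87500807 to 87502647) encodes a JUN protein that activates some AP-1 genes and restrains others. It measured 20.3 and 14.2 FPKM in shLuci and 43.1 and 32.0 FPKM in shTex10. The groups did not overlap, although replicates were wide apart, with replicate 1 above replicate 2 in both groups. In log2 terms the change was 1.08 (SE 0.21; limma, Benjamini-Hochberg adjusted p = 0.00817), or 1.22 relative to all genes.

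Jund (mm9 chromosome 8, 73221637 to 73224515), which in many cells is expressed steadily and without a stimulus, measured 33.1 and 24.7 FPKM in shLuci and 46.3 and 38.4 FPKM in shTex10. The lower shTex10 library stood 1.16-fold over the higher control, the smallest such gap of the 10 genes. This gave a log2 change of 0.54 (SE 0.17; limma, Benjamini-Hochberg adjusted p = 0.0377). This call was lost without shLuci replicate 2 (limma, adjusted p = 0.103) and without the filter on low values (limma, adjusted p = 0.0749).

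Among FOS genes, Fos (mm9 chromosome 12, 86814850 to 86818219), the classic serum-induced gene, was low in both groups, at 2.43 and 2.99 FPKM in shLuci and 5.49 and 6.05 FPKM in shTex10. Its groups lay 1.83-fold apart at their nearest libraries. Its log2 change was 0.87 (SE 0.11; limma, Benjamini-Hochberg adjusted p = 0.00245), or 1.01 relative to all genes.

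Fosl2 (mm9 chromosome 5, 32438844 to 32460212), the gene of FRA-2, which lacks the strong activation domain of c-FOS, measured 3.03 and 2.60 FPKM in shLuci and 4.48 and 3.98 FPKM in shTex10. Both shTex10 libraries were higher, by a smaller step than for Fos. The fitted log2 change was 0.45 (SE 0.11; limma, Benjamini-Hochberg adjusted p = 0.0165), a call that was lost without shLuci replicate 2 (limma, adjusted p = 0.0598).

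Fosl1 (mm9 chromosome 19, 5447697 to 5457563) encodes FRA-1, a FOS protein known from trophoblast and from migrating cells. It measured 0.312 and 0.289 FPKM in shLuci and 1.60 and 1.12 FPKM in shTex10. Its shTex10 mean was 4.53 times its shLuci mean, the widest ratio of the 10 genes, at levels near or under 1 FPKM. Its mean of 0.829 FPKM kept it out of the test. With no filter on low values its log2 change was 0.85 (limma, Benjamini-Hochberg adjusted p = 0.00807). The row of Ccdc85b overlaps this locus and measured 2.47 and 2.67 FPKM in shLuci and 2.18 and 2.22 FPKM in shTex10, and the sources used here do not say whether reads were assigned by strand.

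Fosb (mm9 chromosome 7, 19888044 to 19895394), a close relative of Fos known for its persistence in stimulated neurons, was the lowest of the 10 genes. It measured 0.214 and 0.233 FPKM in shLuci and 0.314 and 0.305 FPKM in shTex10, and with no filter its difference did not pass (limma, Benjamini-Hochberg adjusted p = 0.0823).

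**Figure D1:**
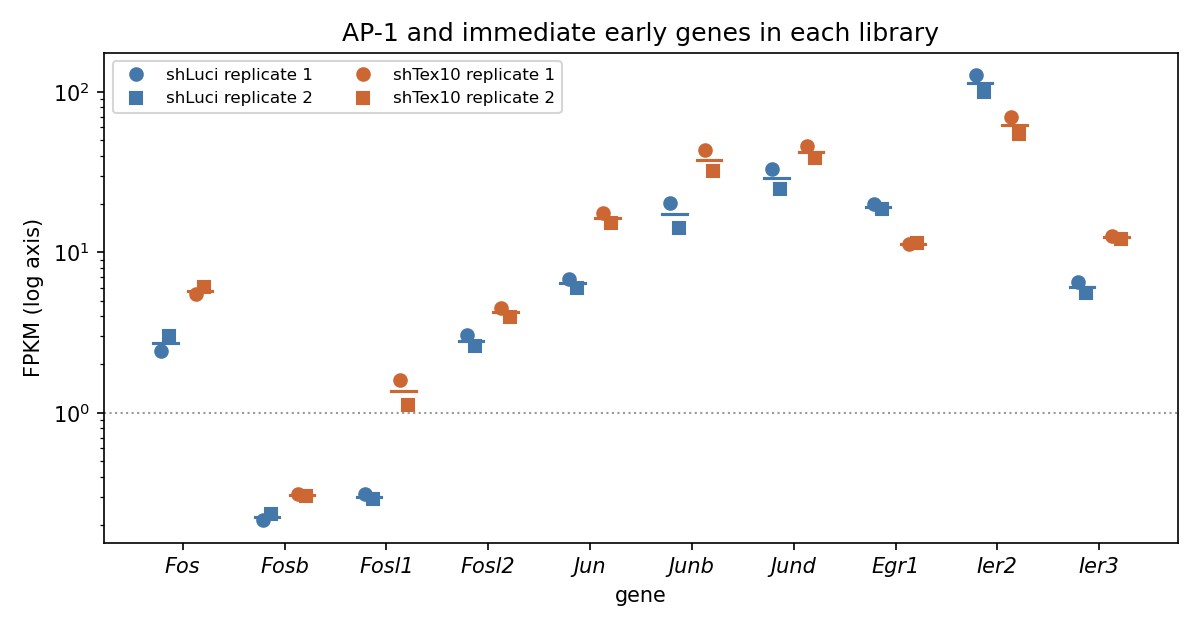
FPKM (log axis) of the 10 genes in each library, with blue for shLuci, orange for shTex10, circles for replicate 1, squares for replicate 2 and short lines for group means; the dotted line marks 1 FPKM. The orange points lie above the blue ones for 8 genes and below them for Egr1 and Ier2.

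Egr1 and Ier2 moved against the others. Egr1 (mm9 chromosome 18, 35020860 to 35024610), a zinc finger factor induced by ERK signalling, measured 19.9 and 18.6 FPKM in shLuci and 11.3 and 11.4 FPKM in shTex10. The replicates lay close together and the groups far apart. The log2 change was -0.72 (SE 0.09; limma, Benjamini-Hochberg adjusted p = 0.00209), or -0.58 relative to all genes.

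Ier2 (mm9 chromosome 8, 87185229 to 87186751), a nuclear protein gene of the early response, was the most abundant of the 10 in both groups. It measured 127 and 100.2 FPKM in shLuci and 70.0 and 54.3 FPKM in shTex10. The higher shTex10 library was below the lower control, with replicate 1 above replicate 2 in each group. In log2 terms it changed by -0.86 (SE 0.17; limma, Benjamini-Hochberg adjusted p = 0.00866), or -0.72 relative to all genes, and 95.1% of the genes tested had a higher one.

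Ier3 (mm9 chromosome 17, 35958657 to 35959856), which encodes a regulator of cell survival, went the other way from its namesake. It measured 6.53 and 5.57 FPKM in shLuci and 12.7 and 12.2 FPKM in shTex10. Its log2 change was 0.93 (SE 0.11; limma, Benjamini-Hochberg adjusted p = 0.00156), or 1.07 relative to all genes.

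Ratios of these genes within a library do not depend on the single factor by which the library was scaled. The ratio of Egr1 to Jun was 2.92 and 3.08 in the shLuci libraries and 0.641 and 0.742 in the shTex10 libraries, so the more abundant of this pair differed between the groups. The ratio of Ier2 to Ier3 was 19.4 and 18.0 in shLuci and 5.51 and 4.47 in shTex10. Both ratios join a gene that rose with one that fell and were picked for that, so they carry no test.

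The order of levels, which FPKM allows since it is per length, changed around Egr1. In shLuci it ran from Ier2 (113 FPKM) through Jund (28.9), Egr1 (19.2), Junb (17.3), Jun (6.43), Ier3 (6.05), Fosl2 (2.82), Fos (2.71) and Fosl1 (0.300) to Fosb (0.224), as group means. The library ranges overlapped for Egr1 and Junb, for Jun and Ier3 and for Fosl2 and Fos. In shTex10 the means ran from Ier2 (62.2 FPKM) through Jund (42.3), Junb (37.5), Jun (16.4), Ier3 (12.4), Egr1 (11.3), Fos (5.77), Fosl2 (4.23) and Fosl1 (1.36) to Fosb (0.309). There the ranges overlapped for Jund and Junb, and for no other neighbours in that order. By rank, Egr1 stood at 3 in shLuci and at 6 in shTex10.

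Summed over the family, JUN transcripts measured 60.2 and 44.9 FPKM in shLuci and 106.9 and 85.7 FPKM in shTex10, a 1.83-fold ratio of means. FOS transcripts measured 5.99 and 6.12 FPKM in shLuci and 11.9 and 11.5 FPKM in shTex10, a 1.93-fold ratio. The JUN sum was 10.1 and 7.34 times the FOS sum in shLuci and 9.00 and 7.48 times in shTex10, ranges that overlap.

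The makeup within each family differed between the groups. Jund made up 55.0% of the JUN sum in both shLuci libraries and 43.3% and 44.8% in shTex10. Junb made up 33.7% and 31.6% in shLuci and 40.3% and 37.3% in shTex10, and Jun 11.3% and 13.4% in shLuci and 16.4% and 17.9% in shTex10. Of the FOS sum, Fosl1 made up 5.21% and 4.72% in shLuci and 13.4% and 9.78% in shTex10, and Fosl2 50.7% and 42.6% in shLuci and 37.7% and 34.7% in shTex10. Fosb made up 3.57% and 3.82% in shLuci and 2.64% and 2.66% in shTex10, whereas the shares of Fos, 40.5% and 48.9% against 46.2% and 52.8%, overlapped. No test was applied to these sums and shares.

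**Figure D2:**
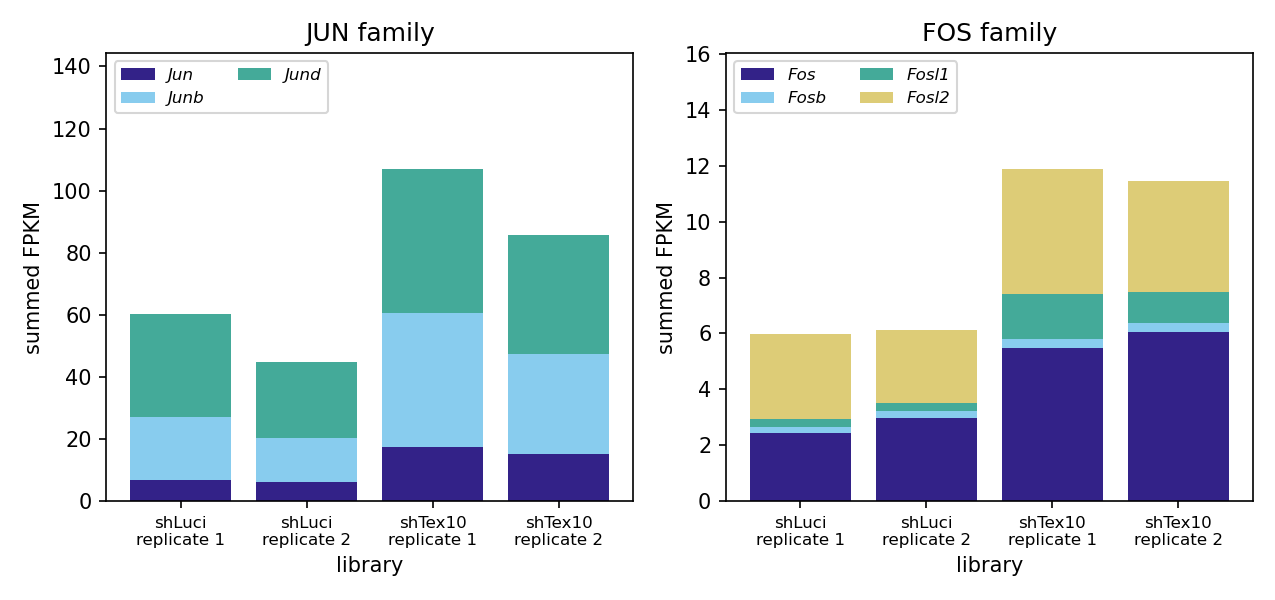
Stacked bars of FPKM summed over the JUN genes (left) and the FOS genes (right) in each of the 4 libraries, with colours for the genes. The JUN sum runs from 44.9 to 60.2 FPKM in shLuci and from 85.7 to 106.9 FPKM in shTex10, and the FOS sum from 5.99 to 6.12 and from 11.5 to 11.9 FPKM; the 2 panels have different scales.

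Direction and call rested on the scaling in different ways. Every change of the 8 tested genes kept its sign under median scaling, quantile normalization and 1 common sum over all rows or over named genes. The remaining settings could not reverse a sign, since the groups of these genes did not overlap. Bringing all rows of each library, unnamed ones included, to 1 common sum left the changes in place but enlarged their errors, and all 8 calls were lost (limma, Benjamini-Hochberg adjusted p = 0.0551 for Jun to 0.632 for Fosl2). Of the 37 tested genes named by rule, these 8 included, 22 lost their call. Before that rescaling, all rows summed to 1.40e+06 and 2.22e+06 FPKM in shLuci and to 1.80e+06 and 1.72e+06 FPKM in shTex10. The 2 shLuci libraries were thus scaled by unlike factors. Under that rescaling 5.55% of all genes were called higher and 2% lower. When instead the named genes of each library were brought to 1 common sum, 27.4% of all genes were called higher and 16% lower, so that 63.2% of calls were higher in place of 38.3%. All 8 genes kept their calls there, with Jun at 1.44, Egr1 at -0.50 and Ier2 at -0.63 on the log2 scale.

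**Figure D3:**
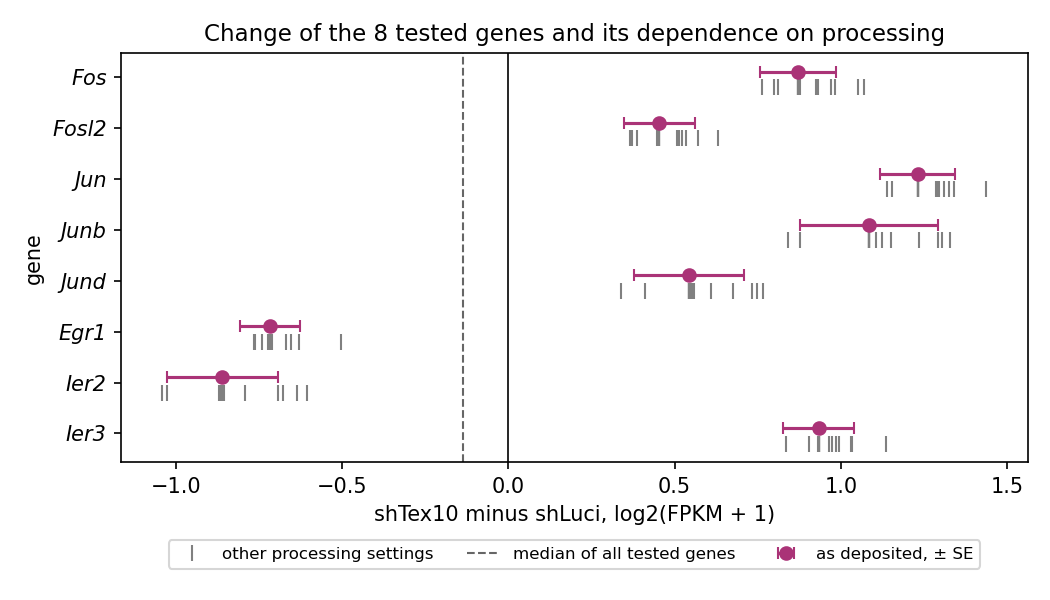
Change of each of the 8 tested genes, shTex10 minus shLuci on the log2(FPKM + 1) scale (points, with SE bars), and the same change under the other processing settings (grey ticks); the dashed line is the median of all genes tested, -0.14. Ticks for Egr1 run from -0.77 to -0.50 and for Ier2 from -1.04 to -0.61, and those of the other 6 genes stay above 0, the lowest being 0.34 for Jund.

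Features of the transcripts were set beside these directions, since AU-rich elements in the 3′ UTR are known to shorten the life of early mRNAs. In the GENCODE annotation (release M21), with the longest coding transcript per gene, the heptamer TATTTAT occurred in the 3′ UTR of 5 of the 6 genes that rose: 4 times in Ier3, 3 times in Fosl2, 2 times in Fos and 1 time each in Jun and Jund. Junb had 0, and so did Egr1 and Ier2, while Fosl1 and Fosb, which were not tested, had 1 each. The pentamer ATTTA occurred at 8.16 per kb in Ier3, 4.91 in Fos, 4.12 in Junb, 3.24 in Jun, 1.88 in Jund, 1.72 in Fosl2, 1.65 in Egr1 and 0 in Ier2, so that Jund and Fosl2, which rose, lay next to Egr1, which fell. Fosl1 had 1.57 and Fosb 0.466 per kb, against a median of 1.23 per kb over 10638 tested genes. Of those genes, 27.5% held TATTTAT. The heptamer counts were not scaled to 3′ UTR length. That length ran from 485 bases (Junb) to 4653 bases (Fosl2), with 1216 in Egr1 and 755 in Ier2, against a median of 941. With so few genes this is a description of their sequences.

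Among genes of the signalling steps upstream, as among all genes tested, more were called lower than higher. The list held genes for MAP kinases, their kinases, the RSK and MSK kinases (Rps6ka1 to Rps6ka5) and the factors that act at these promoters. Of its 28 tested genes 1 rose, 11 fell and 16 did not pass, at a median log2 change of -0.21 against -0.14 for all genes. Of all genes tested, 19.8% were called higher and 31.8% lower, shares that also stand behind the lists that follow. Mapk3, the gene of ERK1, fell. It measured 29.1 and 25.6 FPKM in shLuci and 16.3 and 14.0 FPKM in shTex10 (log2 change -0.82, SE 0.12). Also lower were Mapk14, the gene of p38 alpha, from 47.7 ± 1.60 to 31.0 ± 0.826 FPKM, and Map2k6, a kinase that activates p38, from 7.69 ± 0.729 to 3.37 ± 0.275 FPKM (mean ± SD, n = 2 each). Creb1, whose protein binds the CRE, fell from 7.87 ± 0.0352 to 4.33 ± 0.289 FPKM. The gene that rose was Elk3, an ETS partner of SRF, from 3.86 ± 0.0889 to 6.50 ± 0.800 FPKM. Srf itself measured 22.4 and 16.5 FPKM in shLuci and 19.1 and 14.6 FPKM in shTex10, groups that overlap. The JNK genes Mapk8 and Mapk9, whose kinases phosphorylate c-JUN, had log2 changes of -0.06 and 0.06 and did not pass (limma, Benjamini-Hochberg adjusted p = 0.619 and 0.601). The median of this list turned from -0.21 to 0.01 with 1 common sum over named genes, where 3 rose and 4 fell.

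Other AP-1 and related bZIP genes split. Among 13 genes tested 4 were called higher, 4 lower and 5 neither, with a median of -0.03, whose sign changed between scalings (-0.11 to 0.10). Atf3, itself an early gene whose protein pairs with JUN, measured 2.37 and 2.74 FPKM in shLuci and 12.5 and 12.9 FPKM in shTex10 (log2 change 1.95, SE 0.10). Atf2, which pairs with c-JUN at the CRE, rose from 34.5 ± 3.97 to 58.6 ± 7.02 FPKM, and Atf4, a stress-response factor, from 85.9 ± 0.508 to 137 ± 4.24 FPKM (n = 2 each). Mafk, a small MAF factor, rose from 6.45 ± 1.44 to 10.6 ± 1.68 FPKM. It lost its call with no filter on low values (limma, adjusted p = 0.0559). Bach1, a repressor that partners small MAF proteins, fell from 10.5 ± 0.529 to 7.09 ± 0.541 FPKM. The number of genes in this list that fell was 2 without shLuci replicate 1, 2 without shTex10 replicate 2 and 1 with 1 common sum over named genes.

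Early genes outside the 10 also went both ways, with more of them higher. Among 26 genes tested 16 were called higher, 4 lower and 6 neither, with a median of 0.49 (0.63 relative to all genes). With no filter on low values the median over all 32 genes was 0.26 (0.27 relative). The smallest p-values belonged to Cyr61, Btg2, Plk2, Atf3 and Ctgf. Cyr61, a matricellular protein gene, measured 31.0 and 30.5 FPKM in shLuci and 194 and 186 FPKM in shTex10 (log2 change 2.59, SE 0.08), a wider change than any of the 10. Ctgf, its relative, rose from 50.7 ± 3.91 to 142.8 ± 4.38 FPKM (n = 2 each). Both are also known targets of YAP, and Btg2, Plk2 and Atf3 are also known targets of p53. The 4 that fell were Klf2, Maff, Myc and Homer1, named after their values were seen. Myc measured 20.4 and 22.5 FPKM in shLuci and 12.6 and 11.9 FPKM in shTex10. The nearest relatives of Egr1 were all under 1 FPKM: Egr2 ran from 0.132 to 0.188, Egr3 from 0.0244 to 0.111 and Egr4 from 0.0622 to 0.248 FPKM over the 4 libraries.

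The genes that end the early response moved both ways. Of 19 tested genes for feedback phosphatases, corepressors and mRNA decay, 9 rose, 6 fell and 4 did not pass, with a median of 0.02 (0.15 relative to all genes). With no filter on low values the relative median was 0.03, and with a minimum mean of 5 FPKM the median was -0.06. Without shLuci replicate 2 the number that rose was 5. Dusp1, a phosphatase of p38, JNK and ERK that is itself an early gene, measured 24.6 and 20.1 FPKM in shLuci and 54.0 and 47.2 FPKM in shTex10. Dusp8 measured 0.643 ± 0.0374 and 2.67 ± 0.243 FPKM, and Dusp2 0.452 ± 0.234 and 2.39 ± 0.154 FPKM (n = 2 each). Both reached the filter through their shTex10 values. Fbxw7, which marks c-JUN and MYC for degradation, rose from 14.1 ± 0.604 to 37.1 ± 4.32 FPKM. Spry4, an ERK feedback inhibitor, fell from 26.3 ± 2.33 to 8.26 ± 0.476 FPKM. Nab2, a corepressor of EGR1 and one of its known targets, measured 12.2 and 10.7 FPKM in shLuci and 6.92 and 6.11 FPKM in shTex10. Its relative Nab1 measured 4.56 and 4.94 FPKM in shLuci and 4.10 and 4.96 FPKM in shTex10. Nab1 did not pass (limma, Benjamini-Hochberg adjusted p = 0.680). A link of either gene to the fall of Egr1 was not tested.

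Genes described as targets of AP-1 or EGR1 did not move as one. Among 15 genes tested 9 were called higher, 5 lower and 1 neither, with a median of 0.42 (0.56 relative to all genes). With no filter on low values the median over all 22 genes was 0.19 (0.20 relative). Hmox1, the gene of heme oxygenase, measured 139 and 139 FPKM in shLuci and 346 and 315 FPKM in shTex10. Lif, the gene of the factor that is also in the medium, rose from 2.01 ± 0.0930 to 4.52 ± 0.148 FPKM (n = 2 each). The secreted phosphoprotein gene Spp1 fell from 429 ± 42.1 to 187 ± 16.6 FPKM, and Ccnd1, the gene of cyclin D1, from 59.6 ± 4.76 to 27.5 ± 0.717 FPKM. The number that fell was 3 without shLuci replicate 1, 3 without shTex10 replicate 2 and 3 with 1 common sum over named genes.

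**Figure D4:**
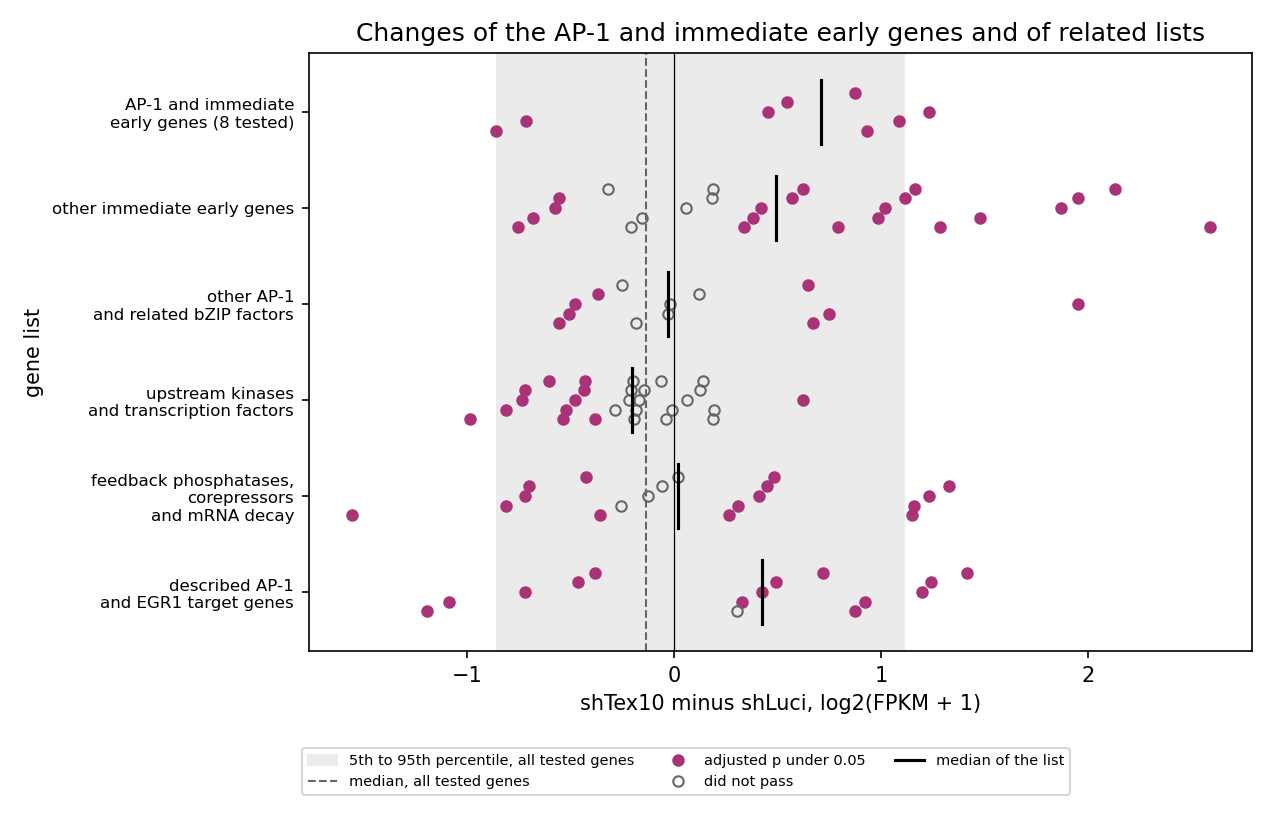
Log2 change of each tested gene (points; filled where limma's adjusted p was under 0.05) in the 10 genes' list, of which 8 were tested, and in the 5 related lists, with the list medians as black bars and the 5th to 95th percentile of all genes tested, -0.86 to 1.11, in grey. The median bar stands at 0.71 for the 8 tested genes and at 0.49 for the other early genes, and at -0.21 for the upstream genes.

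The gene with the largest absolute change among the 8 was Jun. The tested genes with the closest pattern to it over the 4 libraries were Acox3, Wscd1, P4ha2 and Mmp9, at root mean square differences of 0.0174, 0.0203, 0.0290 and 0.0318 in centred log2(FPKM + 1). Mmp9, a matrix protease gene, is also in the target list and measured 0.992 and 0.706 FPKM in shLuci and 3.56 and 2.92 FPKM in shTex10, reaching the filter through the latter. With 4 libraries in 2 groups, many genes share such a pattern.

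Markers of cell types moved in the same libraries. Of 6 ES cell markers, 4 fell, 0 rose and 2 did not pass. Their summed levels were 4832 to 5302 FPKM in shLuci and 3977 to 4382 FPKM in shTex10. The largest part was Dppa5a, at 2432 and 2999 FPKM in shLuci and 2467 and 2917 FPKM in shTex10, which did not pass. The 4 that fell were Pou5f1, Nanog, Zfp42 and Tdgf1, with log2 changes from -0.64 (Pou5f1) to -0.85 (Tdgf1). Of 7 trophoblast markers 5 were tested and all 5 rose, with sums of 261 to 269 FPKM in shLuci and 569 to 578 FPKM in shTex10. Krt8, Krt18 and Krt7 made up most of these sums, and the other tested markers were the trophoblast transcription factor genes Hand1 and Ascl2. Hand1 rose from 5.99 ± 0.740 to 16.1 ± 1.78 FPKM and Ascl2 from 1.37 ± 0.286 to 8.69 ± 1.77 FPKM (n = 2 each). Cdx2 and Elf5 were under the filter, Cdx2 at 0.332 to 0.460 FPKM in shLuci and 1.43 to 1.49 FPKM in shTex10, and Elf5 at 0 to 0.0800 FPKM over the 4 libraries. Of 11 fibroblast markers 5 were tested, 1 fell, 0 rose and 4 did not pass, with sums of 32.9 to 41.5 FPKM and 35.8 to 47.5 FPKM. The one that fell was Col1a2, from 12.7 ± 1.38 to 7.37 ± 0.705 FPKM. Col1a1 measured 18.8 and 12.8 FPKM in shLuci and 30.1 and 20.8 FPKM in shTex10 and did not pass (limma, Benjamini-Hochberg adjusted p = 0.0607), Twist1 lay at 3.04 to 3.56 FPKM, and Lum was at or under 0.0689 FPKM. Of 6 primitive endoderm markers 0 reached the test. The part of these shifts in the levels of the 10 genes was not tested, and in bulk RNA more cells of a type and more RNA per cell cannot be told apart.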

How the data were processed

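RNA-seq values were taken for 4 libraries of CCE mouse ES cells. The deposited unit is FPKM, computed by the authors per library. Build mm9 and the tools Cufflinks 2.1.1, Bowtie2 2.1.0 and TopHat2 2.0.10 are listed, with no roles, in the submitters' processing notes. The sources used here give neither the annotation nor the use of strand. FPKM is relative to all mapped fragments, so abundant features shift every other gene. Rows sharing a name were summed and the 7329 unnamed rows left out. The 11883 genes whose FPKM averaged 1 or more entered limma 3.58.1 (R 4.3.3) as log2(FPKM + 1), without a replicate block, using eBayes with a trend and Benjamini-Hochberg adjustment over all of them (threshold 0.05). The fit was tested on simulated data. Samples were grouped by the hairpin in the labels.

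The 10 genes and the related lists were chosen with earlier results of these data known. Lists are described by counts and medians only. Named were Tex10, the 10 genes, the 5 genes of each list with the smallest p and the 4 genes nearest to Jun, except 1 gene that is not reported here. Others named were chosen after their values were seen. They were Srf, Mapk8, Mapk9, Klf2, Maff, Myc, Homer1, Egr2, Egr3, Egr4, Nab1, Nab2, Ccdc85b, Flot1, Tubb5, Prdx2 and the markers. Mafg, Elk1 and Zfp36l2 share a row with another gene and were not counted, and Atf3 and Maff are in 2 lists. Promoter windows are RefSeq's on GRCm38.p6, and no coordinates were converted between builds.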

Additional observations from a re-analysis of the deposited data

How the results depend on the processing

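Each of 16 other settings was applied. For genes whose groups do not overlap, only the settings that rescale the libraries could reverse a direction. FPKM keeps no depth, so how far depth limits the low genes, Fosb and Fosl1 first, could not be measured. Of 585 values for 37 named genes, 559 kept direction and call, 26 lost the call and 0 reversed. Of the losses, 22 came with all rows brought to 1 common sum, and the others are given beside Jund, Fosl2 and Mafk.

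With all rows brought to 1 common sum, 662 of all genes were called higher and 239 lower. Of the 10 genes 0 were then higher and 0 lower. The counts higher and lower were 6 and 0 for other early genes, 1 and 0 for bZIP genes, 0 and 0 for upstream genes, 3 and 1 for feedback genes and 2 and 0 for targets. The cause was not tested. With named genes brought to 1 common sum, 1901 genes were lower, and the counts lower were 2 for other early genes, 1 for bZIP genes, 4 for upstream genes (3 higher) and 3 for targets. Quantile normalization gave 2 higher and 7 lower of 28 upstream genes, beside 2404 higher and 2908 lower of all 11883. A minimum mean of 5 FPKM gave 1292 higher and 3120 lower of 8542 genes tested. Of 9 bZIP genes tested there 2 were lower, and of 9 targets 5 were higher and 3 lower. No filter gave 2 lower of 19 bZIP genes, beside 3091 higher and 3632 lower of 19307.

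With the replicate number as a block, 3210 of 11883 genes were higher and 5709 lower. Among 26 other early genes 7 were then lower, and among 28 upstream genes 3 were higher and 17 lower. The block changed no call of the 8 tested genes. The deviations of same-numbered libraries correlated at 0.33 across genes, and the labels give no reason for pairing. Replicate 1 exceeded replicate 2 in both groups for Junb (log2 difference 0.49 in shLuci and 0.42 in shTex10), Jund (0.41 and 0.26) and Ier2 (0.34 and 0.36). The same held by smaller steps for Jun (0.16 and 0.19), Fosl2 (0.16 and 0.14) and Ier3 (0.20 and 0.06). Fos was lower in replicate 1 in both groups (-0.22 and -0.12), and only Egr1 had unlike signs (0.10 and -0.01).

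Leaving out each library in turn gave a median change of all genes from -0.14 to -0.12. Without shLuci replicate 2 the log2 changes of Jund and Fosl2 were 0.34 and 0.37. Fosl1 entered these fits only where a shLuci library was left out, through its shTex10 values, with changes of 0.86 and 0.84. List medians ran from 0.44 to 0.52 for other early genes, -0.05 to 0.0004 for bZIP genes and -0.27 to -0.22 for upstream genes. They ran from -0.0008 to 0.06 for feedback genes and from 0.335 to 0.42 for targets. In these fits the lone library of a group is assumed to vary like the other group.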

Other observations

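Rows beside the 10 genes did not share one direction. For 8 of the 30 rows nearest to them (3 for each gene), the groups did not overlap and the direction was that of the gene beside the row. For 11 rows the groups did not overlap and the direction was the opposite one, and for 11 the groups overlapped. Both shTex10 libraries lay above for 4 of the 30 rows and below for 15, beside 28.3% and 48.1% of all genes tested. The 2 sets are unlike, since the 30 rows include unnamed rows and rows under 1 FPKM, which were not tested. The rows named here were chosen after their values were seen, from both kinds. The unnamed row nearest to Ier2, 392 bp away, measured 1.72 and 1.48 FPKM in shLuci and 0.294 and 0.533 FPKM in shTex10, the direction of Ier2. Flot1, a membrane raft protein gene 445 bp from Ier3, measured 8.24 and 7.12 FPKM in shLuci and 13.6 and 12.3 FPKM in shTex10, the direction of Ier3. Against the direction of Ier3, Tubb5, a tubulin gene 11008 bp away, measured 822 and 736 FPKM in shLuci and 326 and 329 FPKM in shTex10. Against the direction of Junb, Prdx2, a peroxiredoxin gene 2595 bp away, measured 339 and 331 FPKM in shLuci and 154 and 141 FPKM in shTex10.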
